A study of Mus musculus with 12 samples.

Results

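The genes described here are the 5 subunits of NF-κB (Nfkb1, Nfkb2, Rela, Relb and Rel), the NF-κB inhibitors Nfkbia and Tnip1, and Psd, whose exons overlap those of Nfkb2 on the opposite strand. They were chosen by name and are 8 of the 24421 genes of the table. RNA was sequenced from SMCC, an immortalized line of mouse small cholangiocytes, the cells that line small bile ducts, grown in EMEM. All 12 libraries came from this 1 line, with 3 libraries in each of 4 transfected groups. Silencing used an siRNA labelled si-bcatenin (here si-Ctnnb1), compared with a control siRNA (si-CTL), both delivered by Lipofectamine RNAiMAX for 24 hours. Activation used a plasmid for stable S45Y β-catenin (S45Y), compared with an eGFP plasmid (eGFP), both delivered by Lipofectamine 3000 for 48 hours. The labels do not say whether the 3 libraries of a group came from separate cultures, so p-values measure only the spread between these libraries, which may be technical.

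NF-κB is a family of transcription factors that act as pairs. In resting cells the pairs are held in the cytoplasm by inhibitors such as IκBα, the product of Nfkbia, and signals from cytokines or bacterial products lead to destruction of the inhibitor and entry of the pair into the nucleus. Rela (p65), Relb and Rel (c-Rel) carry the activating domain, while Nfkb1 and Nfkb2 encode the precursors p105 and p100, which are cut to p50 and p52. Tnip1 (ABIN1) binds ubiquitin chains and restrains signalling to NF-κB. Psd (EFA6A) is no part of this pathway: it is a guanine nucleotide exchange factor for ARF6, best known in brain, and is included because of its position. In cholangiocytes NF-κB drives chemokines and other inflammatory genes.

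Several of these genes carry the κB consensus, the DNA word that NF-κB pairs bind, before their own start. Promoter sequences from RefSeq (GRCm38.p6), spanning 250 bases before to 50 bases after each start, were matched for 6 of the 8 genes, and Nfkb1 and Relb have no entry. On either strand and wholly before the start, the consensus was present in 4 of the 6, namely Nfkb2, Tnip1, Rel and Nfkbia, and was not found in the windows of Rela and Psd. By the same rule 8.23% of all 27025 genes with a promoter sequence held it. A match describes the letters and was not tested as a binding site. The windows that follow are 30 bases each, 5′ to 3′ on the gene's strand, with the match in capitals, and they are shown because these genes are known targets of the factor they restrain or form. Overlapping matches are merged. The starts are those of the RefSeq entries. Nfkb2 has several such starts with 4 windows in all, of which 2 are printed, and both lie inside the span that GENCODE M21 gives the gene, whose longest transcript begins further upstream.
Nfkb2, chr19:46304689-46304718, plus strand, 39 to 29 bases before a RefSeq start: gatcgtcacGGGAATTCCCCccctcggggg
Nfkb2, chr19:46305695-46305724, plus strand, 225 to 216 bases before a RefSeq start further downstream: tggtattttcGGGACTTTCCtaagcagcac
Tnip1, chr11:54962978-54963007, minus strand, 58 to 47 bases before a RefSeq start: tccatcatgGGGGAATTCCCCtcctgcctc
Nfkbia, chr12:55492657-55492686, minus strand, 29 to 20 bases before a RefSeq start: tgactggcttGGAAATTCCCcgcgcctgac
Rel, chr11:23771041-23771070, minus strand, 92 to 82 bases before a RefSeq start: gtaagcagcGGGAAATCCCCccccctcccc

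The depth was low for all of these genes. Library totals ranged from 91468 to 326686 counts, and Rn45s, the precursor of ribosomal RNA, took 1.61% to 15.4% of them. Of the 8 genes, 3 (Psd, Nfkb2 and Tnip1) reached 10 counts in any library and 1 (Psd) did so in every library, as did 1020 genes of the table. Ctnnb1, the targeted gene, was at 13 to 38 counts in si-CTL and 0 to 11 in si-Ctnnb1, a log2 fold change of -2.54 (adjusted p = 0.00491). The eGFP libraries ranged from 6 to 11 counts of it and those labelled S45Y from 4 to 18, a log2 fold change of 0.51 (95% interval -0.58 to 1.61, adjusted p = 0.989), so a rise of Ctnnb1 in the libraries labelled S45Y was not detected. Throughout, adjusted p-values are those of the quasi-likelihood fit in edgeR, corrected over all genes tested by the Benjamini-Hochberg method. Of the 9 cholangiocyte markers examined, Krt18, Krt8, Krt19 and Spp1 had from 365 to 1150 counts over the 12 libraries, while Epcam and Cftr had none.

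Psd and Nfkb2 lie end to end on chromosome 19 of mm10. Nfkb2 (ENSMUSG00000025225) runs on the plus strand from 46304320 to 46312385, and Psd (ENSMUSG00000037126) runs on the minus strand from 46312087 to 46327156. Their exons share 299 bases, from 46312087 to 46312385, all annotated as untranslated region in both genes. These are 6.52% of the 4584 exon bases of Nfkb2 and 3.92% of the 7636 exon bases of Psd. By GENCODE M21, 1 of the 8 Nfkb2 transcripts covers the shared stretch whole and 1 more reaches 4 bases into it, while 4 of the 14 Psd transcripts hold it. The strand setting of the counting and the strandedness of the libraries are not given in the sources used here, so reads from these bases cannot be assigned to one gene or the other. At its other end Nfkb2 also shares 531 exon bases with AC114539.1, a non-coding RNA gene that is no row of the table. None of the other 6 members shares exon bases with a gene on the opposite strand.

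**Figure D1:**
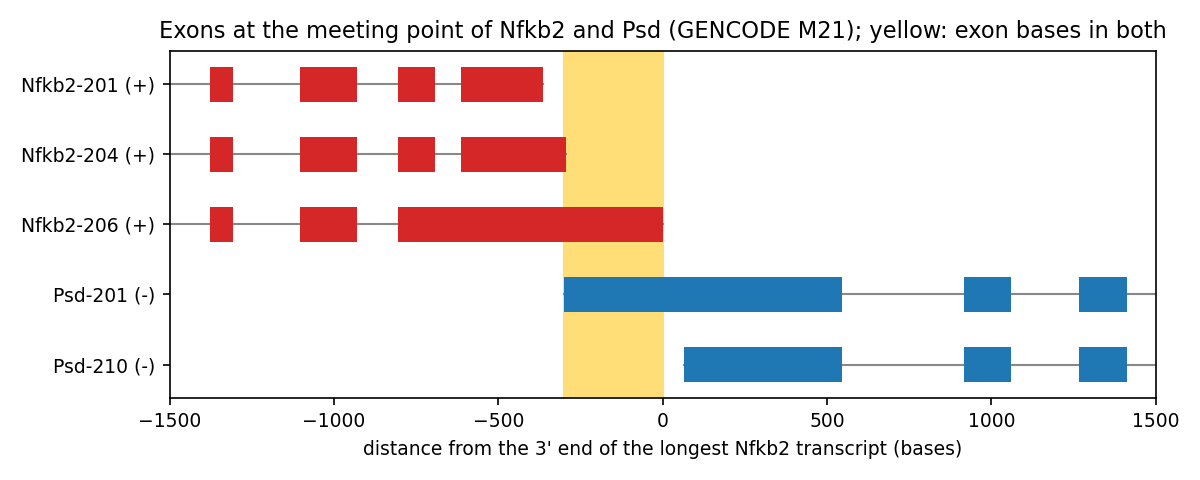
Exons of 3 Nfkb2 transcripts (red, plus strand) and 2 Psd transcripts (blue, minus strand) against the distance in bases from the 3′ end of the longest Nfkb2 transcript. The yellow band marks the 299 bases that are exon in both genes, and only the longest Nfkb2 transcript fills it.

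High counts went with such overlaps across the table. The exons of Psd, the one member with over 1000 counts in all, are overlapped by a protein-coding gene on the opposite strand, and so are those of 276 of the 366 genes (75.4%) with a total of 1000 or more. The share was 38.5% of genes with 100 counts or more but under 1000, 13.1% of genes with 1 to 99 counts and 4.33% of genes with no count. Overlap with a protein-coding gene on the same strand showed no such rise, at 2.73% of the genes with 1000 or more counts and 4.82% of those with none. The shares come from the 23334 genes found once by symbol in GENCODE M21 and are a description. If the libraries kept the strand and were counted with the opposite setting, the count of a gene would hold reads from the other strand. The sources used here do not settle this, and it was not tested. Under that reading counts of Psd could be RNA of Nfkb2, and low counts of a gene with no partner on the opposite strand would not speak to its RNA level. Of the 6 members without such a partner, Rel, Nfkbia, Relb and Rela had 8 to 21 counts in all, whereas Nfkb1 had 43 and Tnip1 had 117, both with counts in all 12 libraries. Every count, level and fold change is given with this limit, those of Ctnnb1, the markers and the other genes of the pathway included.

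**Figure D2:**
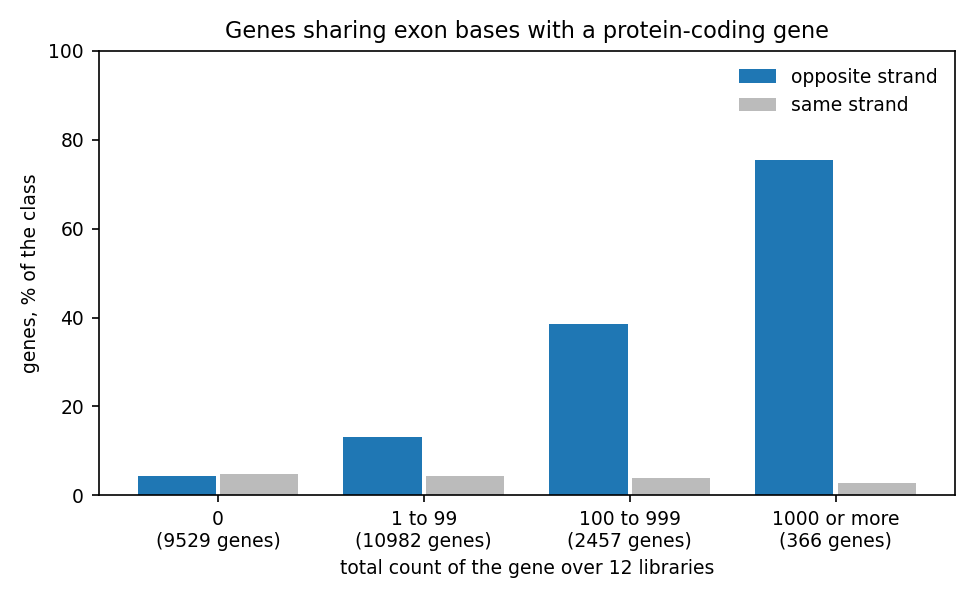
Share of genes (percent, bars) whose exons share bases with those of a protein-coding gene on the opposite strand (blue) or the same strand (grey), in 4 classes of total count over the 12 libraries. The blue bars go from 4.33% to 75.4% with rising count, and the grey bars stay between 2.73% and 4.82%.

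Psd was by far the most counted of the 8 genes, with 1165 counts in all. The si-CTL libraries held 150, 151 and 164 of them and the si-Ctnnb1 libraries 121, 146 and 145. The shallower plasmid libraries held 56, 47 and 35 with eGFP and 45, 43 and 62 with S45Y. Among all genes it held rank 294 by mean CPM in si-CTL, 381 with silencing, 402 in eGFP and 320 in S45Y, CPM being counts scaled by TMM to a common depth over all 12 libraries. Of the 6 neuron markers examined, 3 had no count in any library and none had enough counts to be tested.

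By group mean the order was si-CTL (614 ± 118 CPM), S45Y (555 ± 56.6), si-Ctnnb1 (498 ± 37.3) and eGFP (442 ± 83.1) (SD, n = 3 each). In this order the ranges of neighbouring groups overlapped. The single libraries held 738, 503 and 600.3 CPM in si-CTL against 455, 520.1 and 519 in si-Ctnnb1. They held 530.3, 432 and 365 CPM in eGFP against 573, 492 and 601 in S45Y. So the highest value of si-Ctnnb1 lay above the lowest of si-CTL, and the highest of eGFP above the lowest of S45Y.

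**Figure D3:**
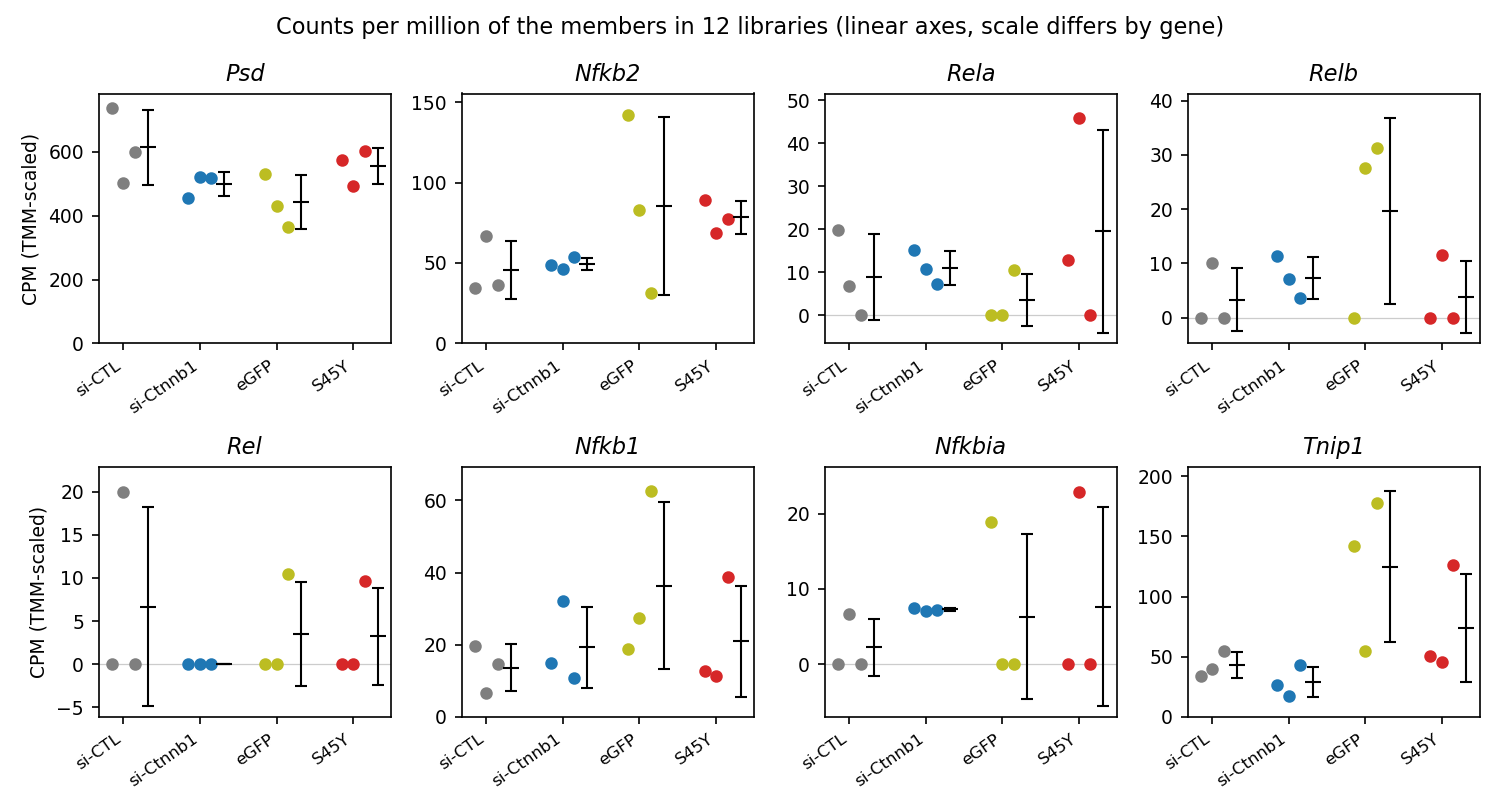
CPM of each of the 8 genes in every library (points, coloured by group), with the mean and SD of each group of 3 beside them (black). The axes are linear and differ by gene. Psd runs from 365 to 738 CPM, and Rela, Relb, Rel and Nfkbia include libraries at 0.

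With β-catenin silenced, none of the 3 testable genes passed. The question was whether the RNA of NF-κB components differed once β-catenin was reduced. Psd had a log2 fold change of -0.31 (standard error 0.16, 95% interval -0.63 to 0.01, adjusted p = 0.415 from edgeR). Nfkb2 had 0.07 (standard error 0.46, interval -0.87 to 0.998, adjusted p = 0.979) and Tnip1 had -0.59 (standard error 0.54, interval -1.69 to 0.51, adjusted p = 0.753). At an adjusted p below 0.05, 0 of these 3 genes were called, against 54 of 3484 genes tested (1.55%), and the median log2 fold change of all genes tested was -0.0033. Without si-CTL replicate 1 the value of Psd was -0.15, and without si-CTL replicate 3 that of Nfkb2 was -0.09. Nfkb2 was also below 0 without si-CTL replicate 1, and at 0.45 without si-CTL replicate 2. Leaving out si-Ctnnb1 replicate 3 put Tnip1 at -0.98, leaving out si-Ctnnb1 replicate 2 put it at -0.33, and leaving out si-CTL replicate 3 put it at -0.38.

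In the libraries labelled S45Y against eGFP, in which Ctnnb1 itself did not pass the test, none of the testable genes passed either. This comparison is called activation here, as in the paper, while the labels say only S45Y and eGFP. The paper reports that S45Y raised β-catenin reporter (TOPFlash) activity in these cells, which counts of Ctnnb1 RNA do not measure. Psd had a log2 fold change of 0.37 in S45Y against eGFP (standard error 0.25, interval -0.14 to 0.87, adjusted p = 0.961), and Tnip1 had -0.65 (standard error 0.57, interval -1.79 to 0.49, adjusted p = 0.988). Without eGFP replicate 3 the value of Psd was 0.22 and that of Tnip1 -0.36. Tnip1 was at -0.41 without S45Y replicate 2, -1.02 without eGFP replicate 2 and -1.33 without S45Y replicate 3. Nfkb2 had too few counts to be tested. Over the table edgeR called 0 of 1819 genes (0%), with 107 at an unadjusted p below 0.05, and DESeq2 also called 0, so a count of 0 among these genes is no different from the background.

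Whether the response of Psd differed between silencing and activation was tested directly in one fit of all libraries. The value of Psd was -0.31 with silencing and 0.37 with activation in their own fits, and the difference was -0.62 on the log2 scale (standard error 0.29, interval -1.18 to -0.05). Its unadjusted p was 0.0337 and its adjusted p was 0.414 from edgeR, so it did not pass. For Nfkb2 the difference was 0.23 (adjusted p = 0.977) and for Tnip1 0.12 (adjusted p = 0.986). Of 2996 genes tested for this difference, 16 were called (0.534%). The sign of the difference turned for Nfkb2 without eGFP replicate 1, at -0.37, and for Tnip1 without any 1 of 5 libraries.

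**Figure D4:**
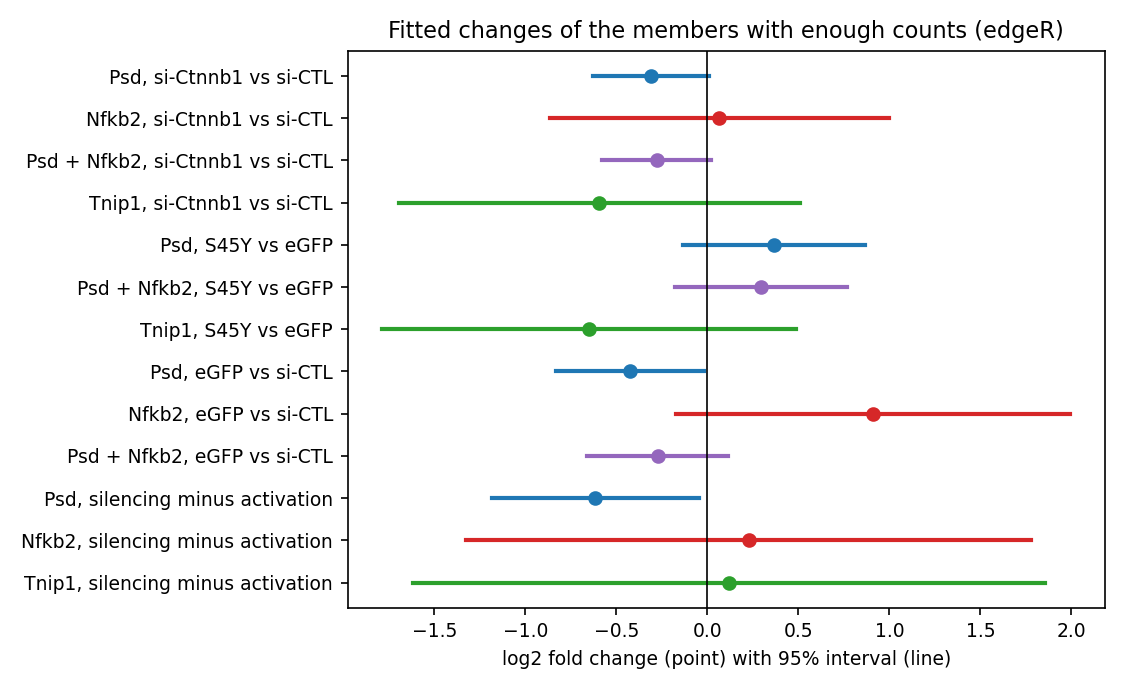
Fitted log2 fold changes (points) with 95% intervals (lines) for Psd, Nfkb2, their sum and Tnip1 wherever counts allowed a test in edgeR. The 2 intervals that leave out 0 are those of Psd for eGFP against si-CTL and for silencing minus activation, whose adjusted p was 0.146 and 0.414.

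Nfkb2 had 126 counts in all. The si-CTL libraries held 7, 20 and 10 counts, the si-Ctnnb1 libraries 13, 13 and 15, the eGFP libraries 15, 9 and 3, and the S45Y libraries 7, 6 and 8. Scaled to depth, this was 34.4, 66.6 and 36.6 CPM in si-CTL and 48.9, 46.3 and 53.7 in si-Ctnnb1. In eGFP it was 142, 82.6 and 31.3 CPM and in S45Y 89.2, 68.6 and 77.5. Each treated group lay within the range of its own control. By group mean the order was eGFP (85.3 ± 55.4), S45Y (78.4 ± 10.3), si-Ctnnb1 (49.6 ± 3.75) and si-CTL (45.9 ± 18.0) (SD, n = 3 each). The ranges of S45Y and si-Ctnnb1 did not overlap, but these groups differ in cargo, reagent, time and depth. The share of all genes that did the same was not taken for this pair. Between the controls, which differ in the same ways, it was 31.7% of genes tested.

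The sum of Psd and Nfkb2 does not depend on which of the pair a read was given to. Entered as 1 feature in place of both, it had a log2 fold change of -0.28 with silencing (standard error 0.15, interval -0.58 to 0.02, adjusted p = 0.452) and 0.30 with activation (standard error 0.24, interval -0.18 to 0.77, adjusted p = 0.9748) in edgeR. Neither passed, and both stood close to the values of Psd alone, which supplied most of the counts and so fixed that closeness. Without si-CTL replicate 1 the sum was at -0.14 with silencing. With activation it was at 0.11 without eGFP replicate 3 and 0.50 without eGFP replicate 1. Reads of the shared bases may also have been given to neither gene, and what share of the reads of Psd came from Nfkb2 RNA was not tested.

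The share of Nfkb2 in the counts of the pair was lowest in si-CTL and highest in eGFP. Over the summed counts of the 3 libraries it was 7.37% in si-CTL (95% exact binomial interval 5.24% to 10.02%) and 9.05% with silencing (6.57% to 12.1%). It was 16.4% in eGFP (11.1% to 22.9%) and 12.3% in S45Y (7.77% to 18.2%), and these intervals cover counting error only. Single libraries ranged from 4.46% in si-CTL replicate 1 to 21.1% in eGFP replicate 1, and eGFP replicate 3, at 7.89%, lay inside the range of si-CTL. Over the 12 libraries the log2 CPM of Psd and of Nfkb2 had a Pearson correlation of 0.0142, given as a description because the libraries share their scaling and their groups.

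**Figure D5:**
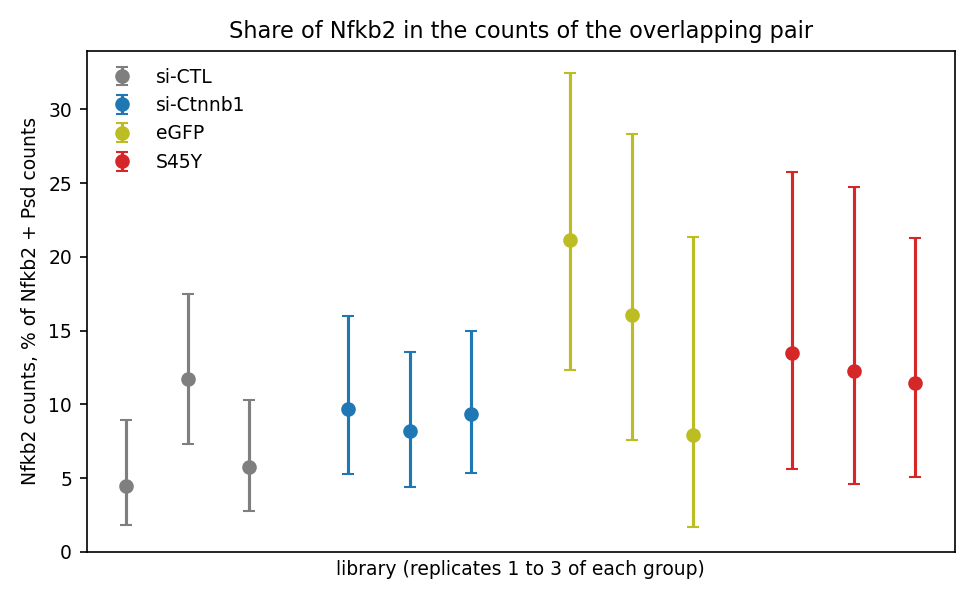
Nfkb2 counts as a percent of the summed counts of Nfkb2 and Psd in each of the 12 libraries (points), with 95% exact binomial intervals (bars), coloured by group. The si-CTL and si-Ctnnb1 points lie between 4.46% and 11.7%, and the eGFP and S45Y points between 7.89% and 21.1%.

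Rela, which encodes the p65 subunit, was barely counted. Rela (ENSMUSG00000024927, chromosome 19, 5637483 to 5648130) was counted 4, 2 and 0 times in si-CTL, 4, 3 and 2 times with silencing, 0, 0 and 1 times in eGFP, and 1, 4 and 0 times in S45Y. In both comparisons the groups overlapped. The ratio of si-Ctnnb1 to si-CTL was 1.41, with a counting interval of 0.448 to 4.82, and a two-sided exact permutation test of the log2 CPM values gave p = 0.6, where 0.1 is the smallest p that 3 libraries against 3 allow. Leaving out si-CTL replicate 1 put this ratio at 3.12, and leaving out si-CTL replicate 3 put it at 0.914. For S45Y against eGFP the exact permutation test gave p = 0.4. With 21 counts in all, a change within that interval was not detectable at these counts, whether they were set by depth or by the strand counted (a library at 0 could still hold RNA worth up to 3 counts).

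Nfkb1, which encodes p105 and p50, was counted in all 12 libraries but never above 9. Nfkb1 (ENSMUSG00000028163, chromosome 3, 135584655 to 135691547) was counted 4, 2 and 4 times in si-CTL, 4, 9 and 3 times with silencing, 2, 3 and 6 times in eGFP, and 1, 1 and 4 times in S45Y. The groups overlapped in each comparison. The ratio was 1.505 with silencing (counting interval 0.642 to 3.71, exact permutation p = 0.5) and 0.629 with activation (0.191 to 1.86, exact permutation p = 0.4). With silencing it was 0.997 without si-Ctnnb1 replicate 2. With activation, leaving out S45Y replicate 3 gave 0.340 and leaving out eGFP replicate 3 gave 0.957.

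Relb and Rel, the partners found mainly with p52 and with p50, were at 0 in 5 and 9 of the 12 libraries. Relb (ENSMUSG00000002983, chromosome 7, 19606217 to 19629438) was counted 0, 3 and 0 times in si-CTL, 3, 2 and 1 times with silencing, 0, 3 and 3 times in eGFP, and 0, 1 and 0 times in S45Y. Rel (ENSMUSG00000020275, chromosome 11, 23736847 to 23770970) had 6 counts in si-CTL replicate 2, 1 in eGFP replicate 3, 1 in S45Y replicate 3 and none elsewhere. For both genes the groups overlapped, and the exact permutation p was 0.3 and 1 with silencing and 0.4 and 1 with activation. The 5 subunits together had 62 counts in si-CTL and 72 in si-Ctnnb1, or 79.8 and 87.2 CPM, with exact Poisson intervals of 61.2 to 102 and 68.2 to 110. They had 46 counts in eGFP and 34 in S45Y, or 148 and 126 CPM, with intervals of 109 to 198 and 87.5 to 177. Nfkb2 supplied most of these counts in every group.

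Nfkbia, the inhibitor that NF-κB itself induces, had 12 counts in all. Nfkbia (ENSMUSG00000021025, chromosome 12, 55489410 to 55492647) was counted 0, 2 and 0 times in si-CTL and 2 times in each si-Ctnnb1 library. Once scaled to depth the 3 si-Ctnnb1 libraries, at 7.27 ± 0.219 CPM, lay above the 3 of si-CTL, at 2.22 ± 3.85 CPM (SD), with an exact permutation p of 0.1. All of these counts lie at or under the 3 counts that a library at 0 could still be worth, and no fold change is given. It was the 1 gene of the 8 whose silenced and control groups did not overlap, and 17.8% of all genes tested in that comparison did the same. In eGFP it had 2, 0 and 0 counts and in S45Y 0, 2 and 0, with full overlap.

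Tnip1, the other inhibitor, was lowest by mean in si-Ctnnb1 and highest in eGFP. Tnip1 (ENSMUSG00000020400, chromosome 11, 54910785 to 54962917) was counted 7, 12 and 15 times in si-CTL, 7, 5 and 12 times with silencing, 15, 6 and 17 times in eGFP, and 4, 4 and 13 times in S45Y. In CPM this was 43.1 ± 10.6, 29.0 ± 12.8, 125 ± 62.9 and 74.2 ± 44.9 in that order (SD, n = 3 each). Treated and control groups overlapped in both comparisons, with an exact permutation p of 0.3 for silencing and 0.2 for activation. Of the 8 genes, 0 had groups that did not overlap between S45Y and eGFP, against 11.1% of genes tested there.

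The eGFP and si-CTL controls are the baselines of the study and share the si-CTL libraries with the silencing comparison. They differ in cargo, reagent, time and depth, which cannot be told apart. Their libraries also differed in Rn45s, at a mean of 144245 CPM in eGFP and 46892 in si-CTL, with 23923 in si-Ctnnb1. Nfkb2 was at 0.91 in eGFP relative to si-CTL on the log2 scale (standard error 0.54, interval -0.17 to 1.99, adjusted p = 0.266), and Psd at -0.43 (standard error 0.20, interval -0.83 to -0.02, adjusted p = 0.146), both from edgeR. Without eGFP replicate 1 the value of Nfkb2 was 0.30. Of these testable genes 0 were called, against 415 of 2459 (16.9%). The value of Psd depended on the filter on low counts: with every gene that had a count kept, it was -0.71 with an adjusted p of 0.0197 from edgeR. The sum of both genes was at -0.27 (standard error 0.19, adjusted p = 0.366), and from -0.53 without eGFP replicate 1 to -0.17 without eGFP replicate 3 and -0.18 without si-CTL replicate 1. Tnip1 could not be tested in edgeR, and 38 counts in eGFP against 34 in si-CTL at greater depth gave a ratio of 2.80 (counting interval 1.71 to 4.58). Its lowest eGFP library, at 55.1 CPM, lay just above its highest si-CTL library, at 54.9, with an exact permutation p of 0.1. With total counts as library sizes in place of TMM this exact permutation p was 0.2, so the gap depended on the scaling. On the TMM scale Tnip1 was the 1 gene of the 8 whose controls did not overlap, where 31.7% of all genes tested did not. For the other members the exact permutation p between the controls was between 0.2 and 1.

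Set per length of exon, the counts given to Psd stood above those of all other members in every group. This divides by all 7636 exon bases of Psd. Where its reads lay is not known from the counts, and if they came only from the 299 bases shared with Nfkb2 the value would not be a level of Psd. In CPM per kilobase of exon it was at 80.4 ± 15.5 in si-CTL and 65.2 ± 4.89 with silencing, and at 57.9 ± 10.9 for eGFP and 72.7 ± 7.41 for S45Y (SD, n = 3 each). Tnip1 and Nfkb2 came next and lay within their spread of each other, for example at 8.20 ± 3.61 and 10.8 ± 0.818 in si-Ctnnb1. The 5 others had means between 0 and 6.35 CPM per kilobase. In bulk RNA such as this, fewer cells that express a gene and less RNA per cell cannot be told apart.

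The other genes of the pathway were mostly too weakly counted to be tested. The lists held 6 further genes of the IκB family or like it. Another 10 belonged to the IKK complex or to kinase complexes upstream of it or related to it. Adaptors numbered 15, and ligands and receptors 20. None of all these passed the filter in any comparison, and in that order 1, 0, 0 and 10 of them had no count at all. Of 10 brakes that edit ubiquitin, 2 were tested with silencing and 1 with activation. Of these 0 were called, beside 1.55% and 0% of all genes tested. The tested brakes were Otud7b, a deubiquitinase of TRAF3, at -0.66 and -0.54, and Tax1bp1, an adaptor of A20, at -0.43 with silencing. The medians were -0.54 in both, beside -0.0033 and 0.020 for all genes tested.

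Among 30 NF-κB target genes, 4 were tested with silencing and 3 with activation. In either, 0 were called, beside 1.55% and 0% of all genes tested, so these counts are no different from the background. Bcl2l1, which encodes the survival protein BCL-XL, had log2 fold changes of 1.32 (adjusted p = 0.0951) and 2.004 (adjusted p = 0.604). The chemokine Cxcl5 had 1.54 with silencing (adjusted p = 0.206), complement C3 had -0.37 and 0.11, and Tapbp, which loads peptides on MHC class I, had 0.01 and -0.01. The list medians were 0.66 and 0.11. Between the controls 2 target genes were tested and C3 was higher in eGFP, by 2.02 on the log2 scale (adjusted p = 2.77e-07), in a comparison where 16.9% of all genes were called. The median of these 2 genes was 1.20 beside 0.010 for all genes. The 14 genes of ARF exchange factors, most of them relatives of Psd or of similar activity, and of ARFs had 1 tested member, Arf1, at 0.40 with silencing and 0.14 with activation, neither called.

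Markers of the cell type and of other cells stood as follows beside these genes. Of the 9 cholangiocyte markers 4 were tested, with medians of -0.36 with silencing and 0.04 with activation. In either, 0 of them were called, beside 1.55% and 0% of all genes tested. Krt8 and Krt18 were higher in eGFP than in si-CTL, by 1.14 and 0.76 on the log2 scale (adjusted p = 5.80e-04 and 0.00162). In that comparison 16.9% of all genes were called. All 4 hepatocyte markers, 4 of 5 leukocyte markers and 3 of 4 fibroblast markers had no count. The exception among leukocyte markers was Cd68, with 174 counts, at 0.08 with silencing and -0.09 with activation.

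Beyond Psd, the genes Fbxl15 and Cuedc2 overlap each other as well. Fbxl15, which encodes an F-box protein, lies on the plus strand beyond Psd and shares 345 exon bases with Cuedc2 on the minus strand. Fbxl15 had 46 counts in all and Cuedc2 had 961, whereas Ctnnb1 and Ulk4, which share 759 exon bases on opposite strands, had 153 and 129. With silencing Ulk4 had a log2 fold change of -0.76 in edgeR (interval -1.67 to 0.14, adjusted p = 0.516), beside -2.54 for Ctnnb1. Cuedc2, which encodes a ubiquitin-binding protein, had a log2 fold change of 0.53 with silencing (adjusted p = 0.0893) and 0.63 with activation (adjusted p = 0.802), and its correlation with Psd over the 12 libraries was -0.118.

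The genes whose log2 CPM followed Psd most closely over the 12 libraries were Pdzk1 (Pearson r = 0.784), Abi3 (0.762), Ppp2r1b (0.755), Ttpal (0.735) and Msmp (0.729), the highest of 1019 genes with at least 10 counts in every library. Of these 5 genes, 4 share exon bases with a protein-coding gene on the opposite strand, next to 75.4% of all genes with 1000 or more counts and 38.5% of those with 100 counts or more but under 1000. The libraries share their scaling, and these correlations are a description.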

How the data were processed

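The authors trimmed reads (per the labels' processing notes Trimmomatic 0.38), aligned them to mm10 with HISAT2 2.1.0 and counted them per gene with HTSeq 0.11.2. The deposited values are raw counts per gene symbol for 12 libraries, without normalization. The gene annotation, strand setting and overlap mode are not given in the sources used here. Libraries were grouped by their labels, and all were used. Replicates of a group differed beyond sampling noise.

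In R 4.3.3, edgeR 4.0.16 (filterByExpr with minimum count 10 and minimum total 15, TMM, quasi-likelihood test) was fitted over all genes of each comparison, with p-values adjusted by Benjamini-Hochberg and called below 0.05. Single genes were tested by two-sided exact permutation of log2 CPM (prior count 2). Positions and overlaps came from GENCODE M21 (mm10), promoters from RefSeq. Intervals are 95% and cover counting error only, save those of the fits, and 0 counts were taken to allow up to 3. Alternatives were DESeq2 1.42.0, other size factors, no filter, one fit of 12 libraries, no Rn45s, a replicate block, other prior counts and fits that left out 1 library. Scripts were tested on simulated data. Text names the 8 members, tested genes of 12 lists, overlapping or neighbouring genes and the 5 genes most correlated with Psd. The shares of genes with overlaps by count level were added after the counts were seen. Members and lists were chosen with earlier results of these data known. Libraries with the same replicate number did not deviate together (correlations from -0.0496 to 0.0314).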

Additional observations from a re-analysis of the deposited data

How the results depend on the processing

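Low counts limit all of these results: 5 of the 8 genes passed the filter on low counts in none of the 4 comparisons. In fits that left out 1 library, the genes called in silencing numbered 31 to 49, against 54 with all libraries, falling to 34 without si-CTL replicate 1, 31 without si-Ctnnb1 replicate 2 and 32 without si-Ctnnb1 replicate 3. The genes called for the difference of silencing and activation numbered 5 to 22 against 16, with 5 without S45Y replicate 1 and 8 without either si-CTL replicate 1 or, separately, si-Ctnnb1 replicate 3. The log2 fold change of Nfkb2 with silencing ran from -0.0901 to 0.454 and was -0.0681 without si-CTL replicate 1. The difference ran from -0.373 to 0.585 for Nfkb2, which did not pass the filter there, or between the controls, without any 1 of the siRNA libraries, and from -0.26 to 0.762 for Tnip1, which was -0.0214, -0.226, -0.0842, -0.125 and -0.26 without eGFP replicate 1, eGFP replicate 3, S45Y replicate 1, S45Y replicate 2 and si-Ctnnb1 replicate 3. Psd kept its direction in all of them, from -0.439 to -0.149 with silencing, 0.223 to 0.501 with activation, -0.621 to -0.305 between the controls and -0.802 to -0.473 for the difference. Without a filter on low counts, Psd between the controls was -0.706 and passed the threshold. The replicate block gave Psd -0.302 with silencing, 0.376 with activation and -0.433 between the controls, and it changed no call of these genes, with 64 genes called in silencing, 0 in activation, 373 between the controls and 17 for the difference. The cause of these shifts was not tested.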
